A study of Mus musculus with 15 samples.

Results

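The 10 genes described here make the mouse class II antigen presentation machinery: the surface chains H2-Aa, H2-Ab1, H2-Eb1 and H2-Ea, the invariant chain Cd74, the peptide editor chains H2-DMa, H2-DMb1, H2-Oa and H2-Ob, and the transactivator Ciita. They were picked by gene name, by a rule that uses no measured value, although the list was made with earlier results of these data known. All 10 had a probe on the array, 15 probes in all, out of 27751 features measured with 1 probe per gene. The animals were male Apc+/Min-FCCC mice, in which 1 allele of the tumor suppressor Apc is mutant and adenomas form in the colon. They were examined by colonoscopy at 6 to 8 weeks of age, and drugs were given in chow for 7 days. RNA from laser microdissected colon cells was measured on 15 single-colour arrays. All 4 groups carry the Apc mutation. Microdissected adenoma came from tumor-bearing mice on plain chow (untreated adenoma, 3 arrays) or on sulindac at 300 ppm with atorvastatin at 100 ppm (treated adenoma, 4 arrays). Sulindac is a nonsteroidal anti-inflammatory drug and atorvastatin a statin. Microdissected normal epithelium came from atorvastatin-treated mice, either tumor-free (4 arrays) or tumor-bearing (4 arrays). For the tumor-bearing epithelium the study's protocol names only plain chow or both drugs, while the sample labels name atorvastatin, and the labels were followed. No untreated epithelium was analysed here. The strain background is labelled C57BL/6J for the first 3 groups.

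Class II molecules are heterodimers of an alpha and a beta chain that show peptides from engulfed or internal vesicles to CD4+ T cells. The invariant chain blocks the peptide groove until proteases of the endosome trim it, DM (a dimer of H2-DMa and H2-DMb1 or H2-DMb2) exchanges its last fragment for other peptides, and DO (H2-Oa with H2-Ob) restrains DM. Ciita switches most of these genes on together and is itself induced by interferon gamma. B cells, dendritic cells and macrophages carry class II constantly, and intestinal epithelium can also express it.

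Several arrays of a group were near-identical. In 6 pairs within a group the SD of the log2 difference between arrays was 0.08 to 0.17, below the spot noise of 0.19 to 0.22, against 0.59 to 1.11 in the 15 other pairs. Such arrays differed by less than the sampling noise and were counted as 1 sample. This left 2 untreated adenoma samples (arrays 1 and 2 together, array 3), 2 treated adenoma samples (array 1, arrays 2 to 4 together), 3 tumor-free epithelium samples (array 1, array 2, arrays 3 and 4 together) and 3 tumor-bearing epithelium samples (arrays 1 and 3 together, array 2, array 4). Across groups, the arrays numbered 2 of both epithelia also differed by only 0.18, at a spot noise of 0.18, and were kept under their labels. Of the probes on an array, 56.5% to 75.5% were well above background, with 56.5%, 57.2% and 59.8% on tumor-bearing arrays 4, 3 and 1 and at least 66.3% on every tumor-free array. All 10 epithelial markers examined were well above background in every sample, as were all 6 fibroblast markers, so the dissected material was not free of stroma. In such bulk samples, fewer cells with class II and less class II RNA per cell cannot be told apart. The labels call the arrays of a group biological replicates, and p-values measure the spread between the samples as counted here.

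Several of the genes share a promoter module, and its sequence is shown because Ciita acts through it. RefSeq promoter sequences (build GRCm38.p6) were matched for 6 of the 10 genes. In 5 of them the letters AAC, the core of the X box, were followed 23 to 26 bases later by the Y box TGATTGG, which lay 45 to 63 bases before the gene's start. The spacing was chosen after the sequences were seen. In capitals are the X core and the Y box, written 5′ to 3′ on the gene's strand.
H2-Aa (chr17:34287864-34287910, minus strand): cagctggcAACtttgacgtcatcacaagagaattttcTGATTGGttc
H2-Eb1 (chr17:34305770-34305815, plus strand): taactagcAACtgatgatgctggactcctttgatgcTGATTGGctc
H2-DMb1 (chr17:34153091-34153137, plus strand): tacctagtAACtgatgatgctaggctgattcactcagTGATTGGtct
H2-Oa (chr17:34092297-34092343, plus strand): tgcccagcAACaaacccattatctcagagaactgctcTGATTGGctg
H2-Ob (chr17:34238812-34238855, plus strand): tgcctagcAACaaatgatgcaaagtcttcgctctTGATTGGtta
H2-DMb2, the second DM beta gene (chr17:34145120-34145166, plus strand): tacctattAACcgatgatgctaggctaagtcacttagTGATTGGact
Among 32851 promoter windows of 250 bases before a start, 0.396% held this pair of motifs on either strand and 7.23% held TGATTGG alone. The H2-DMa windows held no match. A match of letters is a description and does not show binding.

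Levels are log2 values relative to the array's 75th percentile, so they compare samples for a gene, not genes with each other. The alpha and beta chains of the surface molecule come first. H2-Aa, the alpha chain of I-A, was at -1.14 and 0.04 in the untreated adenoma samples, -3.03 and -0.95 in the treated adenoma samples, -2.30, -0.08 and -0.97 in the tumor-free epithelium, and 0.58, 0.04 and -0.90 in the tumor-bearing epithelium. Every group overlapped its neighbour in the order of means, and the lowest and highest samples, treated adenoma array 1 and tumor-bearing arrays 1 and 3, lay 12.2-fold apart. H2-Ab1, the beta chain of I-A, was at 2.49 and 2.72 in untreated adenoma, 2.02 and 2.97 in treated adenoma, 2.89, 3.88 and 2.65 in tumor-free epithelium, and 4.94, 4.16 and 2.70 in tumor-bearing epithelium. Its lowest and highest samples were the same as those of H2-Aa, with a span of 7.56-fold. H2-Eb1, the beta chain of I-E, was at 1.28 and 2.35 in untreated adenoma, 1.3 and 1.98 in treated adenoma, 2.15, 3.01 and 1.26 in tumor-free epithelium, and 3.69, 3.15 and 1.93 in tumor-bearing epithelium. Its span of 5.38-fold was the smallest of the 8 genes measured on every array. H2-Ea, the alpha chain of I-E, was not well above background on any of the 15 arrays. C57BL/6 mice are known to lack a working H2-Ea gene, and RefSeq lists it as a transcribed pseudogene.

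Cd74, which holds new class II dimers in the endosomal route, was at 1.71 and 0.32 in untreated adenoma, 0.52 and 3.62 in treated adenoma, 2.32, 3.12 and 2.45 in tumor-free epithelium, and 3.97, 3.19 and 1.72 in tumor-bearing epithelium. The 2 treated adenoma samples stood further apart than any other pair within a group for this gene. Ciita, the transactivator, was at -4.39 and -4.18 in untreated adenoma, -4.37 and -1.99 in treated adenoma, -3.77, -2.93 and -4.86 in tumor-free epithelium, and -1.10, -2.78 and -2.49 in tumor-bearing epithelium. The 3 tumor-bearing samples lay above all 3 tumor-free samples. Treated adenoma arrays 2 to 4 lay above the other 3 adenoma samples for both Cd74 and Ciita.

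At the probes used, the editing chains did not follow each other. H2-DMa was at -2.15 and -0.97 in untreated adenoma, -4.28 and -1.99 in treated adenoma, -3.78, -1.61 and -2.09 in tumor-free epithelium, and -0.34, -1.41 and -2.20 in tumor-bearing epithelium. H2-DMb1 was at 0.42 and -0.21 in untreated adenoma, 0.93 and 2.55 in treated adenoma, 1.39, 2.59 and -0.13 in tumor-free epithelium, and 4.32, 2.74 and 1.41 in tumor-bearing epithelium. Both treated adenoma samples lay above both untreated ones for H2-DMb1, while for H2-DMa the groups overlapped with the treated mean lower. H2-Oa was at -5.11 and -3.03 in untreated adenoma, -4.46 and -3.70 in treated adenoma, -2.73, -1.13 and -4.05 in tumor-free epithelium, and -1.29, -0.94 and -3.97 in tumor-bearing epithelium. Each group but the treated adenoma spread widely, with an 18-fold span over all samples. H2-Ob was at -6.09 and -6.15 in untreated adenoma, -8.01 and -7.26 in treated adenoma, -4.57, -5.73 and -5.23 in tumor-free epithelium, and -3.54, -5.41 and -5.83 in tumor-bearing epithelium. The H2-Ob probe was not well above background on any of the 4 treated adenoma arrays, nor on untreated adenoma array 2 or tumor-bearing array 4, so the treated adenoma level is only a bound.

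**Figure D1:**
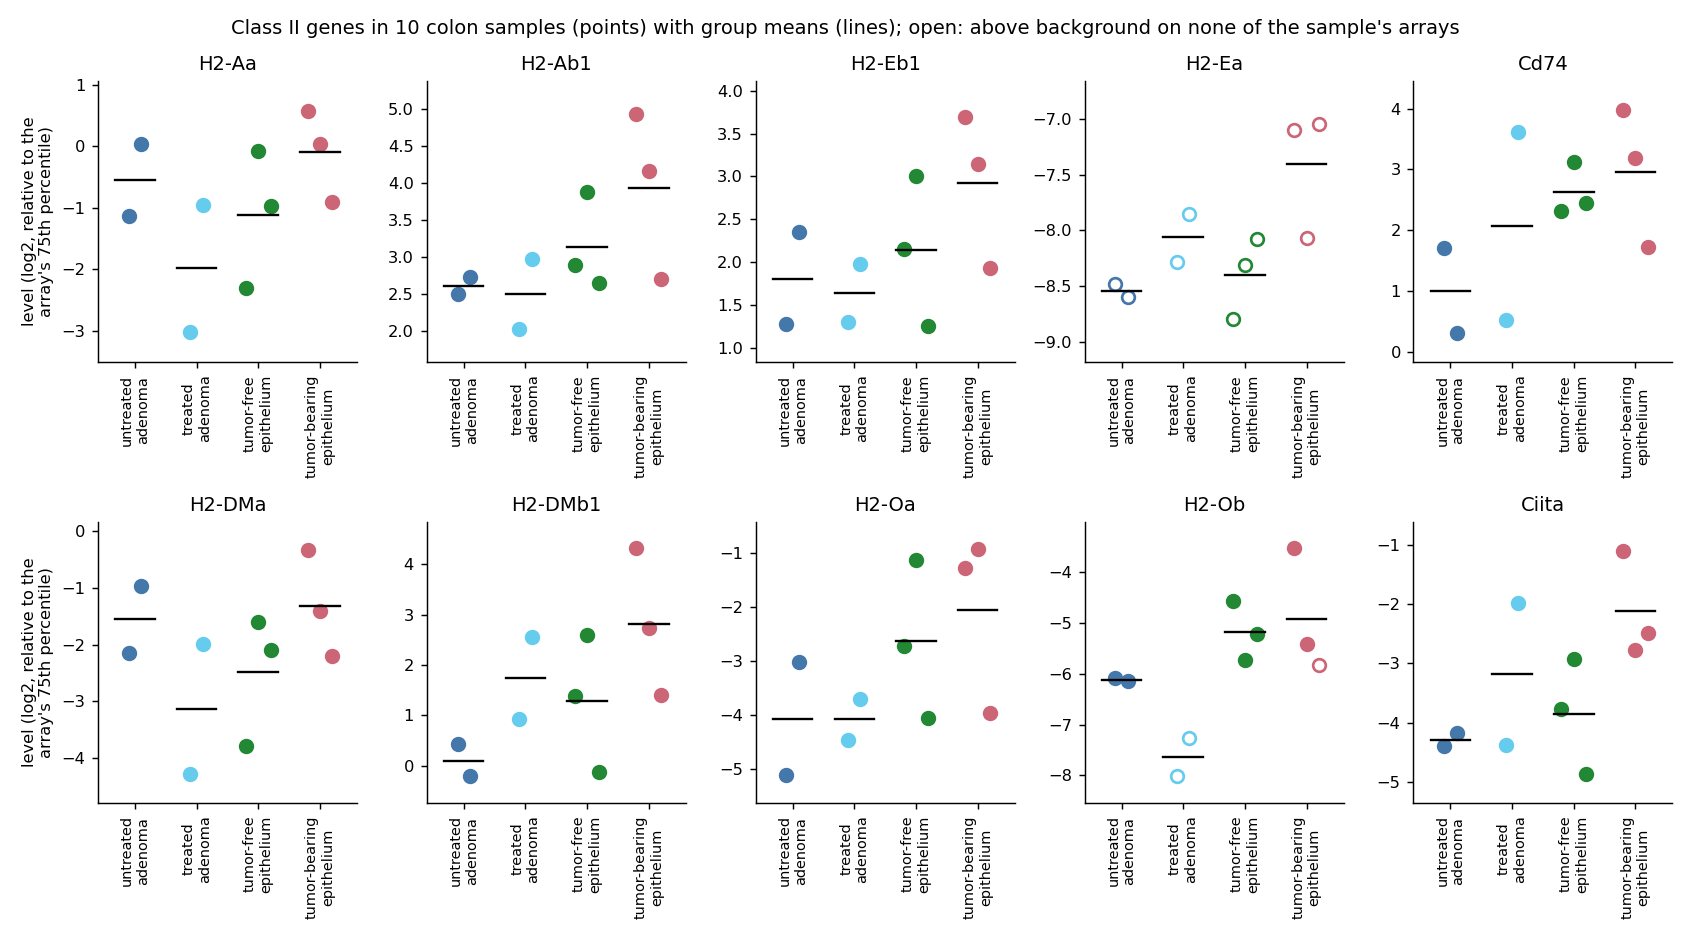
Levels of the 10 class II genes in 10 samples, as log2 values relative to each array's 75th percentile, 1 panel per gene with its own axis. Points are samples by group, lines are group means, and open points were above background on none of the sample's arrays. The tumor-bearing epithelium has the highest mean in each panel, and its points overlap those of at least 1 other group for each of the 9 measured genes. H2-Ea is open throughout.

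The order of the group means put the tumor-bearing epithelium first for all 9 measured genes. For 8 of these 9 genes each group's samples overlapped those of the next group in the order. For H2-Ob 1 of 3 neighbouring pairs overlapped, with readings at background taken as they stood. A single sample of that epithelium stood highest for most genes. Tumor-bearing arrays 1 and 3 held the highest level of 7 of the 8 genes measured on every array, with a mean of 1.85 above the genes' own means on the log2 scale. Array 2 of the tumor-bearing epithelium stood at 1.02 and array 2 of the tumor-free epithelium, its near-identical partner, at 0.86, each above the gene's mean for 8 of 8 genes. Tumor-bearing arrays 1 and 3 had 59.8% and 57.2% of their probes well above background and array 1 had 7.81% outlier spots, and the part of this in their class II level was not tested. The remaining tumor-bearing sample, array 4, with 56.5% of probes, stood at -0.22. Treated adenoma array 1 was lowest, with a mean of -1.42 and 8 of 8 genes below their mean, while the other treated adenoma sample stood at 0.32. The untreated adenoma samples stood at -0.86 and -0.37, and tumor-free array 1 and arrays 3 and 4 at -0.47 and -0.71.

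**Figure D2:**
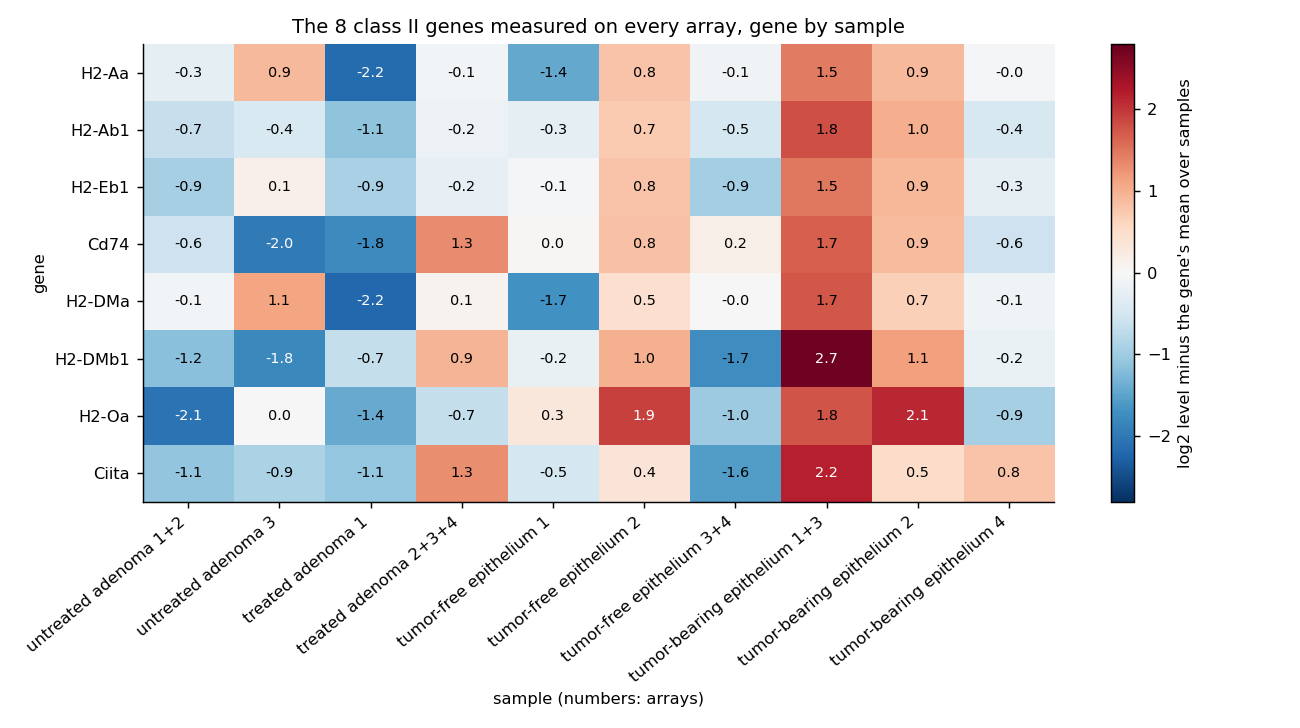
Heat map of the 8 class II genes measured on every array (rows) in 10 samples (columns); colour and printed value give the log2 level minus the gene's mean over samples. The column of tumor-bearing epithelium arrays 1 and 3 is high for all 8 genes and that of treated adenoma array 1 is low for all 8, while Cd74, H2-DMb1 and Ciita part from H2-Aa and H2-DMa in untreated adenoma array 3 and treated adenoma arrays 2 to 4.

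The comparison of treated with untreated adenoma asks what a week of both drugs did to adenoma cells; their effects cannot be told apart from each other. No class II gene was called: 0 of 8 tested passed an adjusted p of 0.05 in limma, 0 of 8 had an unadjusted p under 0.05, and 40 of all 17629 features passed (0.227%). The genes did not share a direction, with 3 higher and 5 lower in treated adenoma and a median log2 difference of -0.06, against 0.05 over all features. H2-DMb1 was 3.11-fold higher (log2 difference 1.64 ± 1.04 SE, adjusted p = 0.581, limma) and H2-DMa 2.98-fold lower (-1.58 ± 0.95, adjusted p = 0.562, limma). The remaining values were -1.44 ± 0.89 for H2-Aa, 1.11 ± 0.88 for Ciita, 1.05 ± 1.00 for Cd74, -0.18 ± 0.74 for H2-Eb1, -0.11 ± 0.73 for H2-Ab1 and 0.00 ± 1.16 for H2-Oa. The 95% intervals were wide: that of H2-Ab1 ran from -1.74 to 1.52 and that of Cd74 from -1.18 to 3.28. H2-Ob was not tested, and its level in untreated adenoma, measured on 2 of 3 arrays, was 1.12-fold above the bound for treated adenoma. Untreated adenoma array 2 entered that level with a reading at background. Samples of the groups did not overlap for 1 of the 8 genes, H2-DMb1, as for 46.9% of all features.

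Leaving out a single adenoma sample changed which way the class II genes leaned. Without array 1 of the treated adenoma 6 of 8 genes were higher in treated adenoma, with a median of 0.37, and without arrays 2 to 4 only 1 of 8 was, with a median of -0.51. Without array 3 of the untreated adenoma 6 of 8 were higher, with a median of 0.36, and without arrays 1 and 2 of the untreated adenoma 3 of 9 were, with a median of -0.71. Within scan dates, 4 of the 8 genes measured on every array were higher in treated adenoma on each of the 2 dates that held both groups, with medians of -0.20 and -0.01. On those dates Cd74 differed by -1.15 and by 3.37.

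The comparison of tumor-bearing with tumor-free epithelium asks whether normal epithelium differs when the same colon bears tumors. All 9 tested class II genes had higher means in the tumor-bearing epithelium, by 0.25 to 1.73 on the log2 scale with a median of 0.80, against 0.01 over all features. None was called in limma (0 of 9; lowest adjusted p = 0.998), nor was any of the 17648 features (0%), of which 2.63% had an unadjusted p under 0.05. Ciita had the highest difference, 3.32-fold (log2 difference 1.73 ± 0.72 SE, unadjusted p = 0.036, adjusted p = 0.998, limma), and was the 1 gene of 9 with an unadjusted p under 0.05. It was also the 1 gene whose samples did not overlap between the groups, as for 7.44% of all features. H2-DMb1 followed with 1.54 ± 0.85, H2-DMa with 1.17 ± 0.78, H2-Aa with 1.02 ± 0.73, H2-Ab1 with 0.80 ± 0.60 and H2-Eb1 with 0.78 ± 0.60. H2-Oa differed by 0.57 ± 0.95, Cd74 by 0.34 ± 0.82 and H2-Ob, measured on 3 of 4 tumor-bearing arrays, by 0.25 ± 0.60.

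The shared direction leaned partly on a single sample. Without tumor-bearing arrays 1 and 3, 7 of 9 genes were still higher, with a median of 0.40, and Cd74 and H2-Ob turned to -0.17 and -0.44. Without tumor-bearing array 4 the median was 1.43, and without tumor-free array 2 it was 1.32 with 8 of 9 genes higher. With the near-identical arrays 2 of both groups left out, 9 of 9 were higher with a median of 1.10, and Ciita differed by 2.52 ± 0.86 (adjusted p = 0.643, limma). No scan date held both epithelia, so no value within a date exists for this comparison. The genes vary together over samples, so 9 genes in 1 direction are not 9 separate observations.

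**Figure D3:**
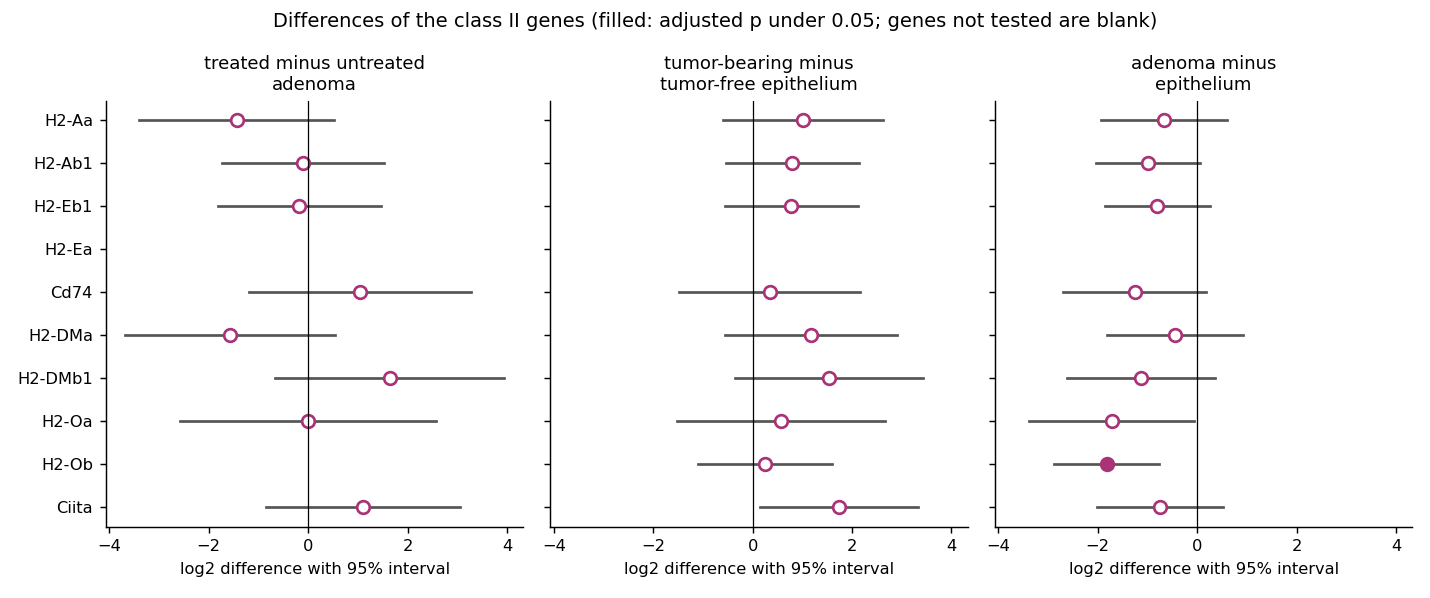
Log2 differences of the class II genes (points) with 95% intervals (lines) in the 3 comparisons; filled points passed an adjusted p of 0.05 and genes not tested are blank. Differences fall on both sides of 0 between the adenomas, above 0 for 9 of 9 genes between the epithelia, and below 0 for 9 of 9 genes in adenoma against epithelium, where H2-Ob alone is filled; its position there rests on treated adenoma readings at background.

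Adenoma against epithelium compared the mean of both adenoma groups with the mean of both epithelia; tissue and drug are partly mixed here, because no epithelium was untreated. All 9 tested class II genes had lower means in adenoma. The log2 differences of the 8 genes measured on every array ran from -1.72 to -0.44, and the median over all 9, with H2-Ob at its bound, was -0.99, beside -0.17 over all features. Only H2-Ob passed the test, 1 of 9 (11.1%), while 4143 of 18913 features did (21.9%), 1744 of them higher and 2399 lower. A single call among 9 genes is too few to set apart from the share over all features. With the treated adenoma at its bound H2-Ob was 2.22-fold lower in adenoma, measured on 2 of 7 adenoma and 7 of 8 epithelium arrays. This fold is not a strict bound, because tumor-bearing array 4 entered the epithelium mean with a reading at background. The adjusted p of H2-Ob, 0.0212 (limma), rests on readings at background in the treated adenoma and gives no size of the difference. The gene entered the test through the tumor-free epithelium. Against the tumor-free epithelium alone the treated adenoma was at least 2.15-fold lower. Against the tumor-bearing epithelium it was 2.55-fold lower, again with array 4 at background. H2-Oa, its partner in DO, differed by -1.72 ± 0.75 (unadjusted p = 0.0434, adjusted p = 0.124, limma). For Cd74 the log2 difference was -1.26 ± 0.65, for H2-DMb1 -1.13 ± 0.67, for H2-Ab1 -0.99 ± 0.47 and for H2-Eb1 -0.81 ± 0.48. Ciita stood at -0.74 ± 0.57, H2-Aa at -0.67 ± 0.57 and H2-DMa at -0.44 ± 0.61. Samples of adenoma and epithelium did not overlap for 1 of the 9 genes, H2-Ob, again with readings at background, as for 17.4% of all features.

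The H2-Ob call rested on few measured arrays and on single samples. Its adjusted p was 0.0693 without untreated adenoma array 3, 0.066 without untreated adenoma arrays 1 and 2, and 0.0855 without treated adenoma array 1 (limma). With normexp background correction it was 0.0531 and in the values deposited by the authors 0.086. Without tumor-bearing array 4, 3 of 9 genes passed, while the share of all features called was 32%: H2-Ob, H2-Ab1 (-1.3 ± 0.38, adjusted p = 0.0317, limma) and H2-Oa (-2.20 ± 0.64, adjusted p = 0.0293, limma). Without treated adenoma arrays 2 to 4, H2-Ob and Cd74 passed, with 15.7% of all features called (Cd74 -2.03 ± 0.57, adjusted p = 0.0414, limma). Without treated adenoma array 1 no gene passed and H2-DMa turned to 0.13. Within scan dates the direction was not constant: of the 8 genes measured on every array, 0 were higher in adenoma on 2 dates, with medians of -2.07 and -2.87, and 6 were on another date that held both tissues, with a median of 0.22. The date with -2.07 compared untreated adenoma array 1 with tumor-bearing arrays 1 and 2. The date with -2.87 compared untreated adenoma array 2 and treated adenoma array 1 with tumor-bearing array 3. Both dates thus held arrays of the same untreated adenoma sample and of the same tumor-bearing sample, and are not separate observations. The date with 0.22 compared treated adenoma array 2 with tumor-bearing array 4. On it Cd74 differed by 1.74 and H2-DMb1 by 1.06.

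At the 1 probe used per gene, the genes of one dimer did not always vary together. Likeness was measured as the root mean square difference of centred log2 levels over the 10 samples. Of the 28 pairs among the 8 genes measured on every array, H2-Aa with H2-DMa was most alike (0.21), followed by H2-Ab1 with H2-Eb1 (0.29) and H2-DMb1 with Ciita (0.58). H2-Aa with its own partner H2-Ab1 stood at 0.70, and H2-DMa with its own partner H2-DMb1 at 1.40, the least alike of all pairs. Other probes of the partners gave smaller values. The H2-Aa probe used stood at 0.34, 0.41 and 0.43 from the other H2-Ab1 probes. H2-DMa stood at 0.37 from a probe shared by both DM beta genes, described below. These values describe samples that share arrays and carry no test.

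Several genes have more than 1 probe, and the probes show that the choice of probe moves these values. The array design (build mm7) places 3 probes of H2-Ab1 along chromosome 17, at 32342603 to 32342662 nearest the 5′ end, at 32345268 to 32345327, and at 32346939 to 32346998 nearest the 3′ end, the last being the probe used above. From the 5′ to the 3′ probe the difference between treated and untreated adenoma was -1.28 ± 0.91, -0.81 ± 0.83 and -0.11 ± 0.74. Between tumor-bearing and tumor-free epithelium it was 1.66 ± 0.74, 1.28 ± 0.67 and 0.80 ± 0.61, and between adenoma and epithelium -0.33 ± 0.59, -0.77 ± 0.53 and -0.99 ± 0.48. None of these was called (limma). The middle probe lies on 10 spots of each array.

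A further H2-Ab1 probe overlaps the 5′ probe over 31 bases, and 2 of these differ between the probes; both are shown because they read the stretch that codes for the variable peptide-binding domain. Capitals mark the differing bases.
5′ probe of H2-Ab1: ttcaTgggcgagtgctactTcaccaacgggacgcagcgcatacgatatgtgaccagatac
Overlapping probe of H2-Ab1: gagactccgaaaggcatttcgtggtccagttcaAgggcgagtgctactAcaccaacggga
Over the samples these probes were the most alike of all class II probes (0.20), and the overlapping probe differed by -0.93 ± 0.86 between the adenomas and by 1.55 ± 0.71 between the epithelia. For H2-Aa the second probe gave -1.39 ± 0.72, 0.94 ± 0.59 and -0.48 ± 0.46 in the 3 comparisons, close to the first. The second H2-Oa probe gave -0.77 ± 1.27, 0.10 ± 1.03 and -0.93 ± 0.82, without a call.

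The DM beta chain showed the same dependence. One probe, named H2-DMb2 in the array files, lists accessions of both H2-DMb1 and H2-DMb2, so its signal cannot be assigned to either gene.
Shared DM beta probe: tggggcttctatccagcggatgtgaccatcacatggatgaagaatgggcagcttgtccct
It was at -2.47 and -1.20 in untreated adenoma, -4.32 and -1.73 in treated adenoma, -3.40, -0.92 and -2.09 in tumor-free epithelium, and -0.72, -0.79 and -2.44 in tumor-bearing epithelium. Its pattern was near that of H2-DMa (0.37) and H2-Aa (0.24) and far from that of the H2-DMb1 probe (1.3). It stood at 0.51 from the second H2-Aa probe, 0.42 from the middle and 0.56 from the 5′ probe of H2-Ab1. The log2 signal gap between the 3′ and 5′ probes of H2-Ab1 was 5.19 and 4.77 in untreated adenoma, 6.64 and 5.65 in treated adenoma, 7.91, 5.94 and 6.09 in tumor-free epithelium, and 6.41, 6.16 and 4.79 in tumor-bearing epithelium. The widest gaps, in tumor-free array 1 and treated adenoma array 1, belonged to the samples with the lowest H2-Aa. Within the untreated adenoma, the treated adenoma and the tumor-free epithelium, a wider gap went with a lower H2-Aa. Within the tumor-bearing epithelium the order was the reverse, and array 4, with the narrowest gap of that group, was lowest for H2-Aa. The part of the gap in the H2-Aa level was not tested. Over 2262 genes with probes at both ends the median gap, relative to each gene's mean, ran from -0.29 in tumor-bearing array 4 to 0.20 in treated adenoma arrays 2 to 4. Its part in the differences between probes was not tested.

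**Figure D4:**
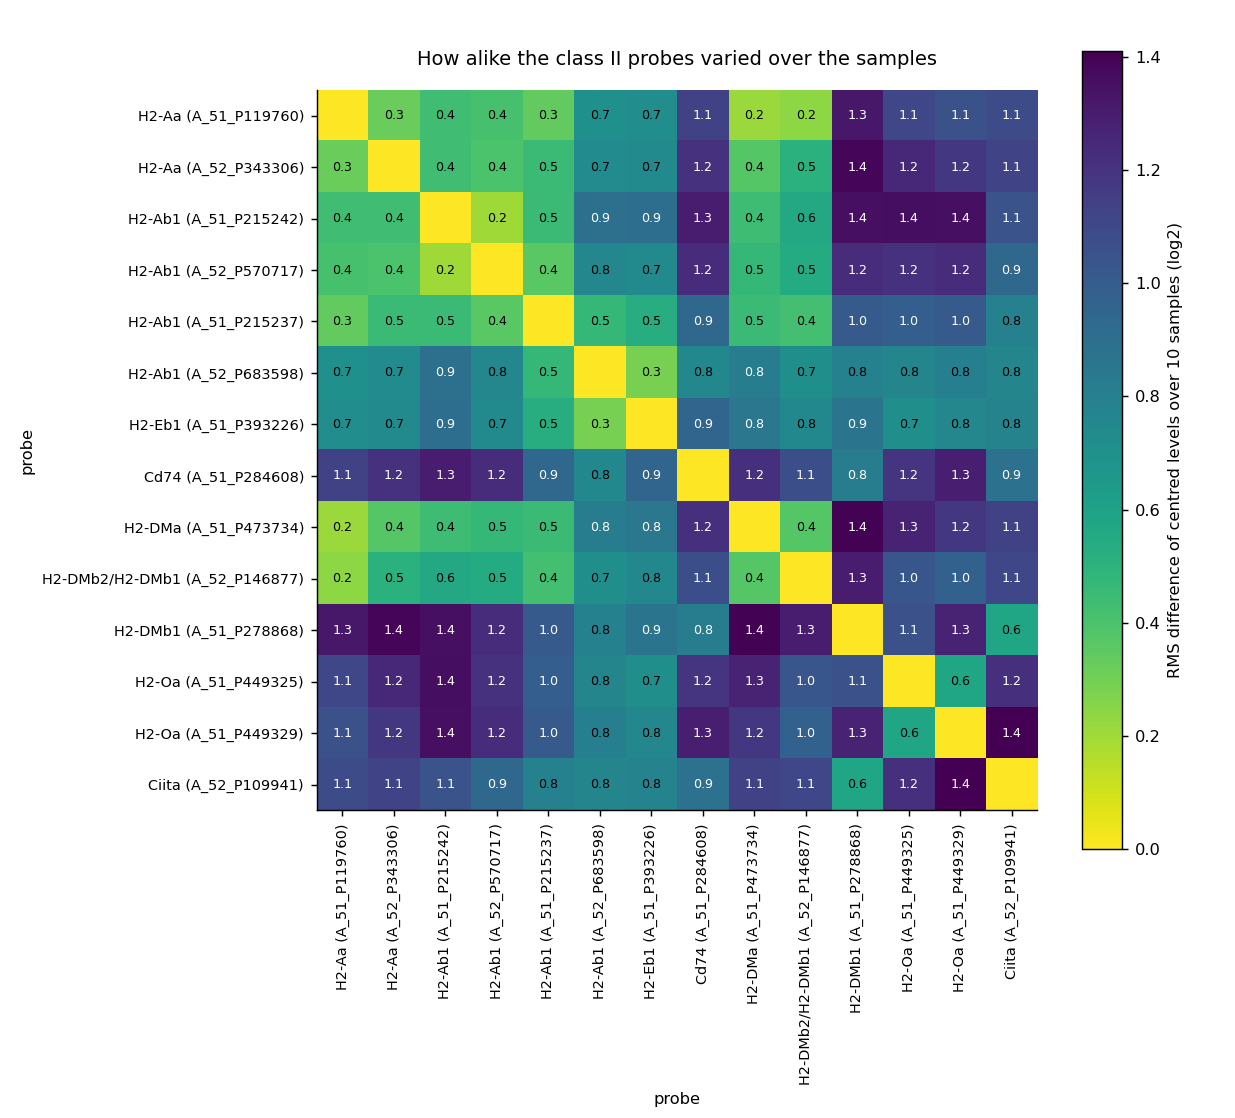
Root mean square difference of centred log2 levels over 10 samples for each pair of 14 class II probes, with yellow for alike and dark for unlike. The probes of H2-Aa, H2-DMa, the shared DM beta probe and the 5′ and middle probes of H2-Ab1 form a block of low values, the 3′ probe of H2-Ab1 pairs with H2-Eb1, and the H2-DMb1 probe is nearest to Ciita.

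The mean pattern of H2-Aa, H2-Ab1 and Cd74 was compared with that of other genes. Among 14526 named features that at least 1 group measured on all its arrays, H2-Ab1, itself part of that mean, was nearest (0.30), and next came Slc25a39, Gamt and Vps9d1 (0.31 each), Git2 and Ctsz (0.32 each). Ctsz encodes a lysosomal cathepsin and Gamt an enzyme of creatine synthesis. H2-Eb1 stood at rank 274, H2-Aa at 798, Cd74 at 1001, and H2-DMb1 at 4802, H2-Oa at 5435 and H2-Ob at 5684. Ctsz was at 4.34 and 4.73 in untreated adenoma, 3.55 and 4.99 in treated adenoma, 3.80, 5.42 and 4.78 in tumor-free epithelium, and 5.85, 5.45 and 4.45 in tumor-bearing epithelium. Its highest sample was tumor-bearing arrays 1 and 3, which is not a separate observation, because Ctsz was picked by likeness to that mean pattern.

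Proteases and other factors that prepare the invariant chain were measured for all 9 listed genes. In adenoma against epithelium 1 passed higher and 3 passed lower (limma), with a list median of -0.52. Of all features 21.9% passed in this comparison, in either direction, a share to read beside this and the following list counts. Cathepsin S (Ctss), which trims the invariant chain in antigen-presenting cells, was 2.86-fold lower in adenoma (log2 difference -1.52 ± 0.44, adjusted p = 0.0339). Ifi30, a lysosomal thiol reductase that unfolds antigens, was 3.28-fold lower (-1.71 ± 0.42, adjusted p = 0.016). Sppl2a, the protease that clears the last invariant chain stub, was 1.94-fold lower (-0.96 ± 0.30, adjusted p = 0.0447). Lgmn, the asparaginyl endopeptidase legumain, was 1.97-fold higher (0.98 ± 0.30, adjusted p = 0.0405). None of the 9 passed between the adenomas, where Lgmn (-1.43 ± 0.46, adjusted p = 0.281) and Ifi30 (-1.63 ± 0.65, adjusted p = 0.366) came nearest, or between the epithelia (limma).

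Of the 7 factors that bind class II promoters with Ciita, 1 passed in adenoma against epithelium: Rfxank, a subunit of the X box factor RFX, was 4.52-fold lower in adenoma (log2 difference -2.17 ± 0.46, adjusted p = 0.00727, limma). The median of this list was 0.62. The other listed RFX subunits differed the other way without passing, Rfx5 by 1.55 ± 0.55 (adjusted p = 0.0673, limma) and Rfxap by 0.23 ± 0.29. The Rfx5 probe was well above background on 3 of 4 tumor-free and 0 of 4 tumor-bearing arrays. Between the epithelia Nfya, a Y box subunit, came nearest (-1.31 ± 0.55, unadjusted p = 0.0372, adjusted p = 0.998, limma). Of 12 genes of the interferon gamma axis, 1 passed higher and 2 passed lower in adenoma (limma). For both lists the share of all features that passed was 21.9%. Gbp2, an interferon-induced GTPase, was 7.01-fold lower (-2.81 ± 0.81, adjusted p = 0.0336), and Irf2, a regulator of the interferon response, 3.73-fold lower (-1.90 ± 0.49, adjusted p = 0.021). Ifng itself was higher (2.06 ± 0.55, adjusted p = 0.0229), although its probe was well above background on only 1 of 4 tumor-bearing arrays. No interferon gene passed in the other comparisons; Cxcl9, an interferon-induced chemokine, differed by 1.75 ± 1.05 between the epithelia (adjusted p = 0.998, limma).

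Among 7 genes for class II turnover and costimulation, 3 passed higher in adenoma and none lower (limma), with a list median of 1.01. Beside this, 21.9% of all features passed in either direction. Cd40, a receptor of antigen-presenting cells for T cell help, was 3.68-fold higher (log2 difference 1.88 ± 0.33, adjusted p = 0.00255). Cd86, a ligand of CD28, differed by 2.23 ± 0.60 (adjusted p = 0.0241) and was well above background on only 1 of 4 tumor-bearing arrays. Cd80, the other CD28 ligand, was well above background on 7 of 7 adenoma and 0 of 8 epithelium arrays and at least 3.27-fold higher in adenoma; its adjusted p of 0.00217 (limma) rests on readings at background in the epithelium. Between the adenomas Icosl (2.93 ± 0.68, adjusted p = 0.138) and Cd40 (-2.12 ± 0.50, adjusted p = 0.146) missed the threshold (limma).

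Markers of cells that carry class II moved unevenly beside these results, and their part in them was not tested. Of all features 21.9% passed in adenoma against epithelium, in either direction. In adenoma against epithelium, of 14 tested macrophage and dendritic cell markers 1 passed, Itgam, higher in adenoma (log2 difference 1.62 ± 0.51, adjusted p = 0.0473, limma). The summed level of the 16 listed markers ran from 5.98 to 6.17 in untreated adenoma, 6.00 to 6.80 in treated adenoma, 4.73 to 5.72 in tumor-free and 5.16 to 6.31 in tumor-bearing epithelium. Cd209a was above background on no array and Clec9a on 3 tumor-free arrays only, while Csf1r, Adgre1, Cd68 and the C1q genes were measured on all 15. Of 4 tested B cell markers Cd79b, a chain of the B cell receptor complex, passed lower in adenoma (-1.88 ± 0.36, adjusted p = 0.00464, limma). The summed level of 8 B cell markers ran from -1.28 to -0.94 in untreated adenoma, -1.88 to -1.84 in treated adenoma, -0.73 to 0.22 in tumor-free and -0.15 to 1.14 in tumor-bearing epithelium, with the top value in tumor-bearing arrays 1 and 3. In that sample 2 of the 8 markers were above background, and in the other samples 2 to 6. Blk was above background on no array, Pax5 on 1 and Ms4a1 on 2.

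Plasma cell markers differed strongly in adenoma against epithelium: of 5 tested, 3 passed lower in adenoma and none higher (limma). For this and the other marker counts of this comparison, the share of all features that passed was 21.9%. Jchain, the joining chain of secreted IgA, was 399-fold lower (adjusted p = 2.15e-06, limma). Mzb1, an endoplasmic reticulum protein of plasma cells, was 56.3-fold lower (adjusted p = 5.11e-06, limma). Tnfrsf17, the BCMA receptor, was 135-fold lower with any group that no array measured set at its bound (adjusted p = 1.32e-05, limma). It was measured on 2 of 7 adenoma and 8 of 8 epithelium arrays. This fold is not a strict bound, because adenoma readings at background also entered the mean. The adjusted p of Tnfrsf17 rests on such readings too. Sdc1, a surface proteoglycan that epithelium also expresses, differed the other way without passing (1.01 ± 0.36, adjusted p = 0.0705, limma), with its highest mean in untreated adenoma. The summed level of the 5 markers, which includes Sdc1, ran from 4.73 to 5.56 in untreated adenoma, 2.61 to 3.86 in treated adenoma, 4.94 to 5.30 in tumor-free and 5.04 to 5.70 in tumor-bearing epithelium. The mean of the markers' centred levels, in which each counts alike, was -2.01 and -1.38 in untreated adenoma, -3.84 and -3.10 in treated adenoma, and 1.5 to 2.02 over the epithelium samples. No T cell or fibroblast marker passed, of 7 and 6 tested. T cell sums ran from 0.55 to 0.62, -0.54 to 0.80, -0.57 to 1.01 and 0.14 to 1.13 in the same order of groups, with Trat1 on 3 arrays and Cd8a on 8. Of 4 pan-leukocyte markers Cd53, a leukocyte tetraspanin, passed higher in adenoma (2.05 ± 0.55, adjusted p = 0.0234, limma), measured on 3 of 4 tumor-free and 2 of 4 tumor-bearing arrays. Of 5 endothelial markers Cdh5, a junction cadherin, passed higher (1.35 ± 0.32, adjusted p = 0.0147, limma), and the sum ran from 2.33 to 3.33, 2.40 to 2.79, 1.90 to 2.53 and 1.39 to 3.10. The pan-leukocyte sum ran from 3.08 to 3.32 and 3.11 to 3.31 in the adenomas and from 1.33 to 3.06 and 2.35 to 3.30 in the epithelia. Of 10 epithelial markers 3 passed lower in adenoma: Krt20, a keratin of mature colonocytes (15.7-fold, adjusted p = 0.00752, limma), the intestinal transcription factor Cdx2 (6.29-fold, adjusted p = 0.0302, limma) and Krt19 (1.95-fold, adjusted p = 0.0431, limma). For Cdx2 the mean was low in treated adenoma alone (-1.61), with 3.58 in untreated adenoma, 3.42 in tumor-free and 3.85 in tumor-bearing epithelium, and the difference between the adenomas did not pass (-5.20 ± 1.16, adjusted p = 0.131, limma). The epithelial sum was 8.73 in both untreated adenoma samples and ran from 8.49 to 8.93, 9.04 to 9.33 and 8.82 to 9.51 in the other groups. None of the listed markers passed in the other comparisons; Jchain came nearest between the adenomas (-3.51 ± 0.75, adjusted p = 0.115, limma) and C1qa, a complement subunit of macrophages, stood at 2.29 ± 1.20 between the epithelia (adjusted p = 0.998, limma).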

How the data were processed

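Dissected cells gave 10 ng of RNA, which was linearly amplified, labelled with Cy3 and hybridised to 4x44 arrays, per the labels' protocols. Agilent Feature Extraction 9.5.3 read the scans, per the submitters' processing notes. Per the file headers, the processed intensity that the authors deposited was background-subtracted and spatially detrended, without normalization between arrays. The authors' deposited value table holds log2 values on a scale near that of the scanner intensities, with a normalization not given here. Its 4 tumor-bearing columns ran in the reverse order of the scanner files they correlated best with, and the table was used only as an alternative.

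From the log2 of each intensity the 75th percentile of its array (non-control probes) was subtracted. Outlier spots were left out and spots of a probe averaged. The probe with the highest mean stood for a gene. Probes were named through RefSeq (GRCm38.p6); Ciita is written C2ta in the files. Arrays of a group below the spot noise were averaged, leaving 10 samples. All 4 groups entered 1 limma 3.58.1 fit (lmFit and eBayes, R 4.3.3; 6 residual and 4.3 prior degrees of freedom). Tests were two-sided, called at a Benjamini-Hochberg adjusted p of 0.05 over all tested features. Testing required a signal well above background on every unflagged array of at least 1 group compared. For a group with no array above background, the bound is the mean of the higher of each array's lowest measured signal and the probe's own. The number of arrays limits the precision.

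The members and gene lists were chosen with earlier results of these data known. The text names every member, every list gene called in a comparison, list genes with the highest moderated t otherwise, and the 5 genes nearest in pattern. The fit was tested on simulated data. Alternatives were another background correction, quantile normalization, the authors' table, other filters, batches as blocks, separate arrays, array weights and leaving out arrays or samples.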

Additional observations from a re-analysis of the deposited data

How the results depend on the processing

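The count of class II genes called stayed at 0 between the adenomas and 0 between the epithelia in every alternative run. In adenoma against epithelium it was 1 in the reported fit. It was 0 with normexp background, 0 with values from the authors and 0 with probes required above background on every array, where H2-Ob is no longer tested. Of all features 25.9%, 25.9% and 17.8% were called in these settings, and 21.9% in the reported fit. It was 3 of 9 with each array as its own sample, 3 with the slide as a random block on separate arrays and 3 with array weights, where 46.4%, 45.6% and 31.8% of all features were called. With scan date as a block on separate arrays it was 3 of 8, with 34.4% of all features called; no date held tumor-free epithelium with another group, so this fit compared adenoma with tumor-bearing epithelium alone and did not test H2-Ob. Leaving out an array or sample gave 0 to 3. Counting every probe of a member, an alternative chosen after seeing the data, left the count at 1. Replicate numbers were not treated as pairs in the reported fit. Deviations of same-numbered arrays correlated at -0.15 to 0.12 between the adenomas and -0.09 to 0.35 between the epithelia. Of the arrays, 2 of 3 and 2 of 4 correlated best with their own number. These values do not settle a pairing, because several arrays of a group are near-identical. With the replicate number as a block on separate arrays the counts were 0, 0 and 3, the last with 48.1% of all features called. Treating copies of one sample as separate gives that sample more weight and more degrees of freedom.

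Over all features the called counts ran from 1 to 2292 between the adenomas (40 reported) and from 2464 to 9098 in adenoma against epithelium (4143 reported), and were 0 between the epithelia throughout. The lists held 21 called genes over the 3 comparisons and 60 with each array as its own sample. Quantile normalization moved the median of all features in adenoma against epithelium from -0.17 to -0.03; 9 of 9 class II genes stayed lower in adenoma there, with a median of -0.79.

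Directions turned mainly between the adenomas, most often for H2-Ab1, H2-Eb1 and H2-Oa, whose values lay near 0. With each array as its own sample, replicate block, slide block and scan date block, H2-Ab1 was at 0.16, 0.33, 0.39 and 0.38, H2-Eb1 at 0.17, 0.35, 0.36 and 0.25, and H2-Oa at 0.53, 0.86, 0.84 and 0.75. H2-Oa was at 0.01 with quantile normalization and 0.02 with the shared RNA as a random block. Leaving out arrays or samples turned further values, with ranges here over these omissions alone. Between the adenomas the ranges were -0.49 to 2.6 for Cd74, -0.08 to 2.3 for Ciita, -0.59 to 0.36 for H2-Ab1, -0.71 to 0.36 for H2-Eb1 and -1.04 to 1.04 for H2-Oa. Between the epithelia they were -0.17 to 0.96 for Cd74, -0.14 to 1.52 for H2-Oa and -0.44 to 0.7 for H2-Ob. In adenoma against epithelium H2-DMa ran from -1.02 to 0.13. The cause was not tested.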
